A study of Homo sapiens with 4 samples.

Results

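The regions described here are the m5C peaks of human chromosome 17 in PANC-1, an established pancreatic cancer cell line. They were chosen by position alone, as every peak that the deposited lists place on that chromosome. Replicate 1 has 221 such peaks of 3177 in its list, and replicate 2 has 333 of 5742, which makes 554 of 8919 in both lists. All cells had been exposed beforehand to extracellular vesicles from cancer-associated fibroblasts, the stromal cells of a tumour. RNA bound by an m5C antibody and input RNA were sequenced in 2 replicates, and each replicate has 1 list of peaks, meaning stretches with more antibody-bound than input signal. No group without vesicles is among the samples, so nothing here measures what the vesicles did. Whether the replicates were separate cultures is not stated, so their spread may be technical. The lists hold no read counts and no gene names, so the depth is unknown, the cell line could not be checked against marker genes, and regions are named by strand and 1-based hg19 position. Each peak carries a score from the authors, of unstated unit, which is used within its list and is only set side by side between lists.

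5-methylcytosine (m5C) is a cytosine with a methyl group on the ring. In RNA it is written by enzymes of the NSUN family and by TRDMT1, and it is bound by reader proteins such as ALYREF, an export factor, and YBX1, which stabilises messages. Chromosome 17 is a gene-dense chromosome whose long arm carries the HOXB cluster and the type I keratin genes. It is also known for segmental duplications, long stretches copied to more than one place in the same or the opposite orientation. No peak was assigned to any of these genes.

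Chromosome 17 ranked 4 among the 24 chromosomes by number of peaks in each list. Its share was 6.96% in replicate 1, with a 95% Wilson interval of 6.12 to 7.89, and 5.80% in replicate 2 (5.22 to 6.43). Fisher's exact test of that difference, two-sided, returned p = 0.0313 (0.140 adjusted by Benjamini-Hochberg for 24 chromosomes), so the shares did not differ past the threshold. Added up, the replicate 1 peaks span 40274 bp and the replicate 2 peaks 62552 bp. Wilson intervals here cover counting error only, and neighbouring peaks are not independent.

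Peaks crowded at both ends of the chromosome and in the inner part of the long arm. The short arm held 73 of the 221 replicate 1 peaks, or 33.0% (27.2 to 39.5), and 102 of the 333 replicate 2 peaks, or 30.6% (25.9 to 35.8). The arms were parted at 24 Mb, inside the centromere. The lists did not differ past the threshold in this share (Fisher's exact test, two-sided, p = 0.576, and 0.576 after Benjamini-Hochberg adjustment over the comparisons of arm and strand). Within each arm the density was uneven. The outer 10 Mb of the short arm held 61 and 72 peaks, which is 6.10 and 7.20 per 1 Mb window in replicates 1 and 2. The next 12 windows, up to 22 Mb, held 1 and 2.50 per window. On the long arm the sparse stretch lay in the middle, not next to the centromere. Its 22 windows, from 50 to 72 Mb, held 0.773 and 1.32 peaks per window. The 25 windows from 25 to 50 Mb held 3.08 and 5.36 per window, and the last 9 windows, from 72 Mb on, held 6 and 7.56. Both lists thus put their 2 densest stretches at the 2 ends. The borders of these stretches were chosen after the counts had been seen.

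**Figure D1:**
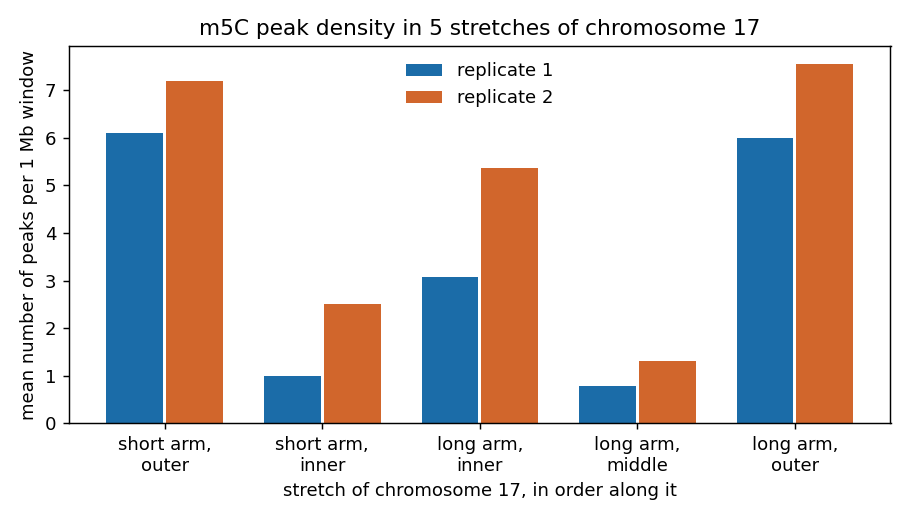
Mean number of m5C peaks per 1 Mb window (vertical axis) in 5 stretches of chromosome 17, in order from the short-arm end to the long-arm end, with 1 bar per replicate. Both replicates are high at the ends, at 6.10 and 7.20 on the short arm and 6 and 7.56 on the long arm, and low in the stretch from 50 to 72 Mb, at 0.773 and 1.32.

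The longest stretch without a peak of either list was not the centromere. It ran for 5.53 Mb on the long arm, from 49338287 to 54869274, and ended at the peak with the lowest score of replicate 1 on this chromosome (10.10, minus strand, 160 bp). The stretch that spans the centromere was 4.32 Mb long, from 21319699 to 25635577. The next, of 4.11 Mb, ran from 66533766 to 70645309. The remaining gaps were at most 1.72 Mb long.

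The window from 7 to 8 Mb held the most peaks when both lists were added, 15 in replicate 1 and 16 in replicate 2. The window from 73 to 74 Mb followed with 15 and 13, and the window from 79 to 80 Mb with 10 and 14. In replicate 1 the 5 densest windows were completed by 3 to 4 Mb with 13 peaks and 27 to 28 Mb with 10, and these 5 held 28.5% of its peaks. In replicate 2 the 5 fullest windows held 21.3%. Such a share also depends on how many peaks a list has, which was not adjusted for. Besides the windows from 7, 73 and 79 Mb, the fullest of replicate 2 were those from 8 and from 36 Mb, with 14 peaks each. The window from 8 to 9 Mb held 5 peaks in replicate 1, and that from 36 to 37 Mb held 6. A replicate 2 count of 10 or more was reached in 13 windows and a replicate 1 count of that size in 5.

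Most windows with any peak held peaks of both lists. Of the 81 windows up to the last peak, 51 held both, 5 replicate 1 only, 12 replicate 2 only and 13 neither. That is 75% of the 68 windows with a peak (63.6 to 83.8). The share rose with the size of the window, from 63.8% with 0.5 Mb windows to 97.3% with 2 Mb windows. Windows with both lists took in 214 of the 221 replicate 1 peaks and 294 of the 333 replicate 2 peaks. The windows with replicate 1 only were those from 25, 29, 32, 70 and 75 Mb. That from 75 Mb held 3 peaks and the others 1 each. Among the 12 with replicate 2 only, those from 47 and from 61 Mb held 7 peaks each and that from 45 Mb held 6, while the others held 3 or fewer. Sharing a window was not sharing a position, since 30 of the 51 windows with both lists held no overlapping pair. Over the 68 windows with a peak, the counts of the lists went together with Spearman's rho of 0.63 and Pearson's r of 0.69. This is a description across windows, which share their libraries and gene content, and it carries no p-value. Windows of other chromosomes are not given here, so the window shares have no background beside them.

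**Figure D2:**
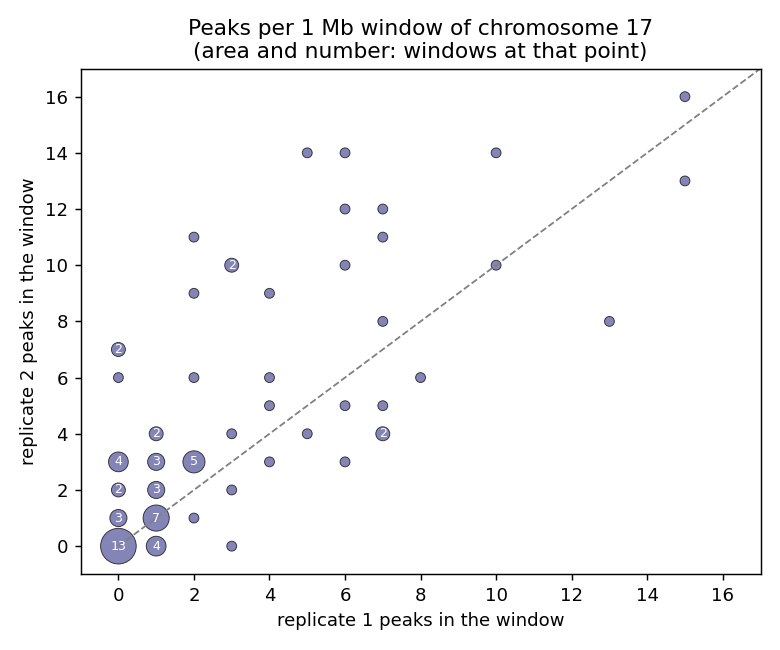
Number of replicate 1 peaks (horizontal axis) and replicate 2 peaks (vertical axis) in each 1 Mb window of chromosome 17. The area of a point and the number in it give how many windows lie there, and the dashed line marks equal counts. The 13 windows at the origin hold no peak, 43 windows lie above the line, and the windows with 15 and 16 and with 15 and 13 peaks are the fullest.

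The numbers in the peak names rise with position along the chromosome in both lists, and they skip values. Between the first and the last listed peak of chromosome 17 they advance by 1689 in replicate 1 and 5767 in replicate 2, counting both ends. The listed peaks were 12.95% of the numbers that could fall on this chromosome in replicate 1 (limits 12.8 to 13.1 from the ambiguity at the ends) and 5.70% in replicate 2 (5.62 to 5.77). Over the whole lists they were at most 8.85% and 4.63%. The listed share varied along the chromosome. In the outer 10 Mb of the short arm it was 22.9% (21.7 to 24.1) in replicate 1 and 7.40% (7.11 to 7.73) in replicate 2. From 10 to 22 Mb it was 5.03% (4.48 to 5.74) and 3.69% (3.42 to 4.005). From 50 to 72 Mb it was 6.77% (6.12 to 7.59) and 3.16% (2.82 to 3.59). From 25 to 50 Mb it was 13.6% (12.8 to 14.5) and 6.78% (6.33 to 7.29), and from 72 Mb on 14.1% (13.2 to 15.0) and 5.84% (5.48 to 6.24). The 2 sparse stretches thus had the lowest listed shares in both lists. Among the 3 others the lists differed. In replicate 1 the shares had the same order as the densities, though the limits from 25 to 50 Mb and from 72 Mb on overlapped. In replicate 2 the share did not follow the density, since the stretch from 72 Mb on was the densest and had the lowest share of these 3. How peaks were selected from those numbered is not given in the sources used here.

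More peaks of chromosome 17 lay on the minus than on the plus strand in both lists. Plus-strand peaks were 91 of 221 in replicate 1, or 41.2% (34.9 to 47.8), and 154 of 333 in replicate 2, or 46.2% (41.0 to 51.6). The order of the arms was opposite in the lists. The intervals of the lists overlapped on both arms, and the shares by arm were not tested. Replicate 2 had 37.25% plus (28.5 to 46.9) on the short arm and an even 50.2% (43.8 to 56.6) on the long arm. Replicate 1 had 45.2% (34.3 to 56.6) and 39.2% (31.7 to 47.2). From 72 Mb on the plus share was 40.7% in replicate 1 and 63.2% in replicate 2, and from 50 to 72 Mb 23.5% and 55.2%. Over all other chromosomes the plus-strand share was 51.4% (49.6 to 53.2) and 52.2% (50.9 to 53.5). Of the 24 chromosomes, chromosome 17 ranked 24 in this share in replicate 1 and 22 in replicate 2. These are descriptions, with no test of chromosome 17 against the rest. Between the lists the share did not differ past the threshold (Fisher's exact test, two-sided, p = 0.257, and 0.513 after Benjamini-Hochberg adjustment over arm and strand). Among peaks at or above their list's median score the gap between the lists widened from -5.07 to -13.0 points (adjusted p = 0.0578, Fisher's exact test), and that in the short-arm share from 2.40 to 10.5 points. The filter was not alike in the lists. The median is the tied score 3100 in replicate 1, which left 122 peaks, and 281.3 in replicate 2, which left 173. Counting same-strand peaks within 10 kb of each other once, 77 of 193 groups of replicate 1 and 128 of 277 groups of replicate 2 were on the plus strand.

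The strands were mixed unevenly along the chromosome. In replicate 1 the window from 3 to 4 Mb had 12 of its 13 peaks on the minus strand, and those from 0, 34 and 74 Mb had all of theirs there (6, 6 and 7 peaks). Replicate 2 was on the minus strand in 7 of 8 peaks from 3 Mb, 3 of 3 from 0 Mb and 9 of 10 from 34 Mb. From 74 Mb it had 3 peaks on the plus and 1 on the minus strand. The window from 78 to 79 Mb was the converse, with all 9 replicate 2 peaks and 3 of 4 replicate 1 peaks on the plus strand. Among the 21 windows with 4 or more peaks in each list, 12 had the same majority strand in both, 6 had opposite majorities and 3 had a tie.

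Widths on chromosome 17 were close to those elsewhere. Replicate 1 had a median of 175 bp (interquartile range 91 to 262), where the other chromosomes had 166 bp. Replicate 2 had a median of 137 bp (75 to 242), where the others had 141 bp. The share of peaks under 50 bp was 14.9% in replicate 1 (10.8 to 20.2) and 12.9% in replicate 2 (9.73 to 16.9), beside 13.0% and 15.8% on the other chromosomes. The widest replicate 1 peak measured 572 bp, on the minus strand from 415551 to 416122, followed by 536 bp from 6328022 to 6328557 and 516 bp from 46698806 to 46699321, also minus. Replicate 2 reached further, with 1596 bp on the plus strand from 7416340 to 7417935, 1440 bp on the minus strand from 74002975 to 74004414, and 996 bp on the minus strand from 80279251 to 80280246. Their scores were 1512.58, 358.66 and 84.70. At the other end, replicate 1 listed a peak of a single base at 79386905 (plus, score 424.39), 1 of 2 bp at 40275370, and 3 of 4 bp at 767348, 18180989 and 79104861, the last 4 with the score 3100. The narrowest replicate 2 peaks were 7, 11 and 13 bp long, starting at 77769856, 38487109 and 46110577. All 5 of these replicate 1 peaks were narrower than any replicate 2 peak of the chromosome.

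**Figure D3:**
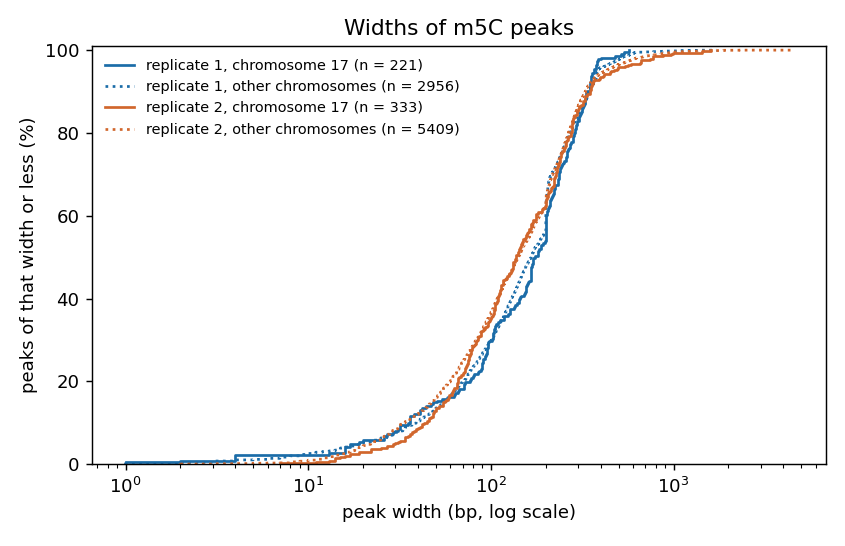
Share of peaks (vertical axis, percent) at or under a given width (horizontal axis, bp, log scale) on chromosome 17 (solid) and on the other chromosomes (dotted) for each replicate. The curves of a replicate run close together, with medians of 175 and 166 bp for replicate 1 and of 137 and 141 bp for the other list. The step at 200 bp in the solid curve of replicate 1 comes from its 10 peaks of that width on chromosome 17. Its dotted curve steps there too, as the whole list has 194 such peaks.

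A width of exactly 200 bp was the most frequent on chromosome 17 in replicate 1, with 10 peaks, or 4.52%. It was also the most frequent width of the whole list, at 6.11%. In replicate 2 it was held by 5 peaks, or 1.502%, beside 1.88% of the whole list. Only 1 of the 10 replicate 1 peaks of this width had the score 3100, the one starting at 27940372 on the plus strand. The others scored between 30.45 and 897.55.

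The scores of chromosome 17 repeated the contrast between the lists. In replicate 1 the score 3100 was held by 121 of 221 peaks, and 1 peak was above it, with 3205.84 on the minus strand from 41907022 to 41907124. At or above 3100 were 55.2% (48.6 to 61.6), beside 51.9% on the other chromosomes. In replicate 2, 2 of 333 peaks had 3100, or 0.601% (0.165 to 2.16), beside 0.684% at or above it elsewhere. The low ends differed too. No replicate 2 peak scored under 50, on this chromosome (lowest 50.78) or in the whole list (lowest 50.13). In replicate 1, 12 of 221 peaks did so here and 168 of 3177 in the whole list (lowest 3.51). The replicate 2 median was 297.41 with quartiles of 128.79 and 562.3, and the median of replicate 1 below 3100 was 645.83 over 99 peaks. On the short arm 63.0% of replicate 1 peaks (51.6 to 73.2) were at or above 3100, and on the long arm 51.4% (43.4 to 59.3). In replicate 2 the medians of the arms were 263 and 314.7, in the opposite order.

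The 2 replicate 2 peaks with 3100 lay on the minus strand from 8076644 to 8077062 and from 34797832 to 34798054. Next came 2237.52 on the plus strand from 41151768 to 41152119, 2199.07 on the minus strand from 3920665 to 3920964, and 2136 on the minus strand from 34755950 to 34756162. Of these 5, the first 3 overlapped a replicate 1 peak, with replicate 1 scores of 1030, 14.36 and 908.22. None of the replicate 1 scores there was 3100. The highest replicate 1 peak, at 41907022, had no overlapping peak in replicate 2. As 121 peaks tie at 3100, the rest of the top 5 by position were those starting at 190980, 415551, 767348 and 1387442, all on the minus strand, and none of them overlapped a replicate 2 peak.

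An overlap was counted from 1 shared base on the same strand. By that count 32 of the 221 peaks in replicate 1, or 14.5% (10.4 to 19.7), had a counterpart in replicate 2, against 13.6% in the whole list. Seen from replicate 2 it was 32 of 333, or 9.61% (6.89 to 13.2), against 7.49% in the whole list. Both intervals hold the share of the whole list. The 32 overlaps were 32 separate pairs, 16 on each strand, with 11 on the short and 21 on the long arm. Asking for a reciprocal overlap of 50% left 9.05%, where the whole list fell to 7.65%. It was 9.02% once the lower-scoring peaks of each list, under its median, were dropped (7.92% in the whole list). It was 9.50% with replicate 2 shortened to the length of replicate 1 by score (8.15% in the whole list). Allowing a distance of 10 kb, 33.5% of the replicate 1 peaks (27.6 to 39.9) had a same-strand neighbour in replicate 2, beside 28.8% over all chromosomes. Within 100 kb the values were 66.1% (59.6 to 71.98) and 57.8%. Seen from replicate 2, 24.9% (20.6 to 29.8) had a replicate 1 neighbour at 10 kb, beside 16.9% over all chromosomes. At 100 kb it was 57.4% (51.99 to 62.6), beside 39.2%. These shares lay above those of the whole list, though the replicate 1 interval at 10 kb holds the whole-list share and the other intervals do not. Such shares also depend on how densely a chromosome is covered with peaks, which was not adjusted for. No test of the chromosome against the rest was made.

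The overlapping peaks were wider in replicate 2 for 20 pairs, wider in replicate 1 for 10 and equally wide for 2, with median widths of 220 and 251 bp. A replicate 1 peak lay wholly inside its replicate 2 partner in 18 pairs, and the reverse held in 7, the 2 identical pairs being counted in both. At least 1 edge fell on the same base in 18 of the 32 pairs, or 56.2% (39.3 to 71.8), beside 52.2% of the 435 pairs of all chromosomes. Edges are given in the direction of the strand, so that the 5′ edge is the first base of the peak. The shared edge was the 5′ one in 9 pairs, the 3′ one in 7 and both in 2.

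**Figure D4:**
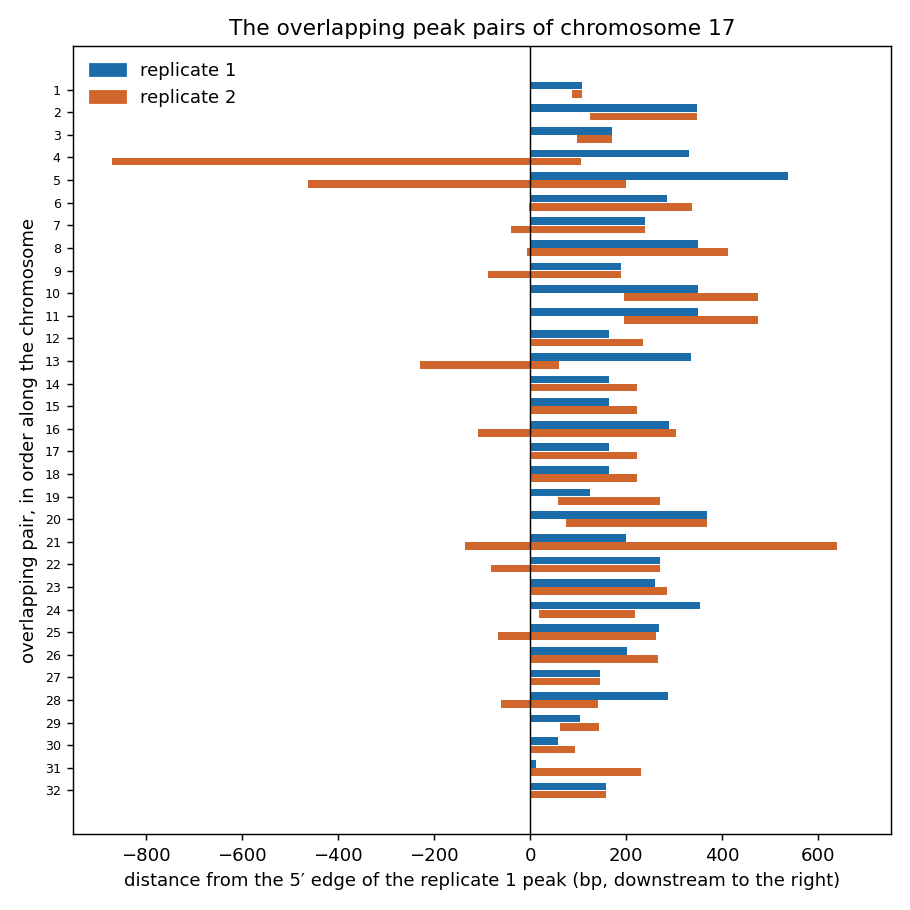
The 32 overlapping pairs of chromosome 17, each drawn along its strand with the distance from the 5′ edge of the replicate 1 peak on the horizontal axis (bp) and 1 row per pair in order of position. In 11 rows both bars start at 0, and in rows 14, 15, 17 and 18 the bars have the same 2 lengths, 165 and 223 bp.

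The 2 pairs with both edges in common lay on the minus strand from 73503065 to 73503210, where replicate 1 scored 3100 and replicate 2 scored 151.6, and on the plus strand from 80828100 to 80828256, with 3100 and 242.24. Both are near the long-arm end. Their replicate 2 scores were below the median of that list.

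The 9 pairs with only the 5′ edge in common lay on the long arm. They include 5 replicate 1 peaks of 165 bp, which come with the equal-width pairs. Of the remaining 4, the pair on the plus strand from 48823081 scored 3100 and 820.56, and its peaks were 261 and 284 bp wide. The pair from 73100065 on the plus strand scored 3100 and 59.85, with widths of 201 and 266 bp. The pair from 79654033 on the plus strand scored 3100 and 571.94, with widths of 58 and 93 bp. In each of these the replicate 2 peak ran further downstream, by 23 to 65 bp. The last, on the minus strand ending at 80373503, was a 13 bp peak in replicate 1 inside a 230 bp peak of replicate 2, with 3100 and 959.72.

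Of the 7 pairs with only the 3′ edge in common, 5 were on the short arm. In 3 of these the replicate 2 peak was the narrower. They lay on the minus strand from 1416747 (109 and 22 bp, scores 3100 and 51.63), on the plus strand from 1631574 (347 and 222 bp, 75.25 and 82.22) and on the minus strand from 3989780 (170 and 72 bp, 3100 and 133.77). The other 2, on the plus strand from 7788163 (239 and 279 bp, 178.78 and 400.63) and from 9549265 (189 and 277 bp, 3100 and 486.88), were wider in replicate 2. On the long arm the minus-strand pair from 36955519 measured 369 and 295 bp with scores of 1220.38 and 421.55. The plus-strand pair from 41151850 measured 270 and 352 bp with 908.22 and 2237.52.

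The remaining 14 pairs shared no edge, and their offsets ranged widely. The closest was on the plus strand from 7757025, where the 5′ edges lay 2 bp apart and the scores were 3100 and 815. On the minus strand from 8076706 they lay 7 bp apart, with 1030 in replicate 1 and 3100 in replicate 2. The largest offset was 869 bp, on the plus strand from 4927946, where a 975 bp peak of replicate 2 (score 134.93) reached upstream of a 331 bp peak of replicate 1 (3100). Next was 462 bp, on the minus strand from 6328022, with 536 and 662 bp and scores of 3100 and 118.72. The overlap was 106 bp in the first of these and 200 bp in the second, so most of each replicate 2 peak lay outside its partner.

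Among the other pairs without a common edge, those from 30820818 (minus, 3100 and 133.06), 35310294 (plus, 2191.1 and 317.08), 57280785 (plus, 1022.9 and 77.63), 62893248 (minus, 3100 and 296.28) and 73518041 (plus, 3100 and 249.97) had replicate 2 scores at or below 317.08. The pairs from 36347712 (minus, 3100 and 1089.78) and 79256029 (minus, 3100 and 593.37) had higher replicate 2 scores than those pairs. The pair from 41143601 (plus, 51.13 and 234.84) joined a 200 bp peak of replicate 1 to a 774 bp peak of replicate 2. The 2 others, at 13399787 and 14248345, belong to the equal-width pairs.

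Whether the scores of the 32 pairs rise together cannot be told, as most replicate 1 scores are tied at 3100. Replicate 1 had 3100 in 20 of the pairs and replicate 2 in 2, and no pair had it in both. The replicate 2 median was 391.6 where replicate 1 had 3100 and 483.2 where it was lower. Spearman's rho over the 32 pairs was -0.18, and -0.12 over the 12 pairs with a replicate 1 score below 3100. Both are descriptions over few pairs with many ties, and no sign is read from them. The minus-strand locus from 34797890 held the extremes of both lists at once, with 14.36 in replicate 1, which is shared with 1 other peak and above only 10.10 on this chromosome, and 3100 in replicate 2. Overlapping replicate 2 peaks had a median of 454.2 and the 301 others 291.4. In replicate 1, 62.5% of overlapping peaks (45.3 to 77.1) and 54.0% of the others (46.9 to 60.9) were at or above 3100.

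**Figure D5:**
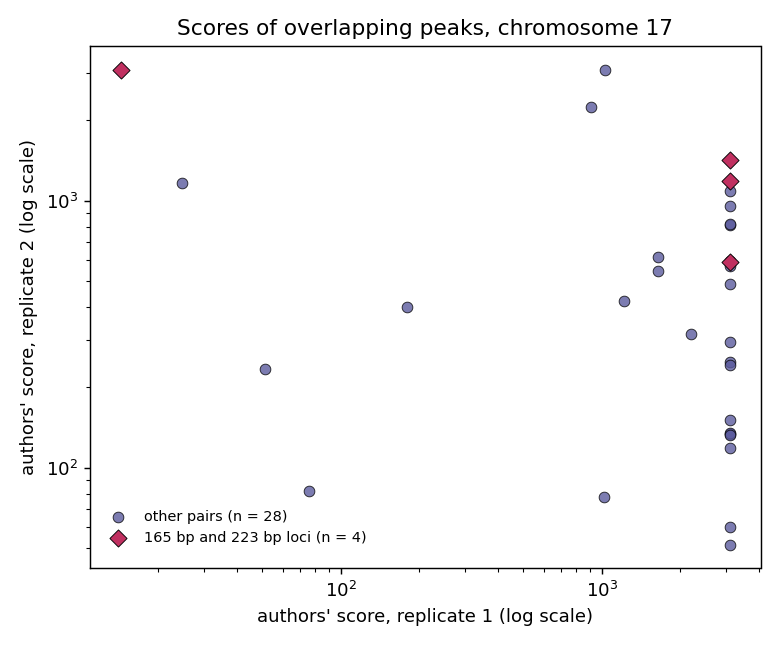
Authors' score of each overlapping pair in replicate 1 (horizontal axis, log scale) and replicate 2 (vertical axis, log scale), with the 4 loci of 165 and 223 bp as diamonds. The 20 pairs with 3100 in replicate 1 form a column from 51.63 to 1420.65 in replicate 2, and the diamond at the upper left is the locus with 14.36 and 3100.

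Peaks of a list that have the same width were paired. Chromosome 17 had 128 such pairs in replicate 1, or 0.527% of its 24310 possible pairs, and 161 in replicate 2, or 0.291% of 55278. Over all chromosomes, counting pairs within a chromosome, the shares were 0.702% and 0.301%, so equal widths were no more frequent here than elsewhere. The score was also equal in 34 of the replicate 1 pairs, but in 33 of these it was 3100. In replicate 2 it was equal in 1 pair. In 20 pairs of each list the peaks started within 2 Mb of each other.

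Outside the score 3100, 1 pair of each list agreed in both width and score. In replicate 1 these were 2 peaks of 349 bp with the score 1641.6, on the minus strand from 13399787 to 13400135 and on the plus strand from 14248345 to 14248693. Both had a replicate 2 partner of 279 bp, with scores of 616.02 and 544.86. At each locus the replicate 2 peak began 195 bp downstream of the replicate 1 peak and ended 125 bp beyond it. The loci lie about 848 kb apart on opposite strands, with the same arrangement along the strand. In replicate 2 the pair was of 110 bp with the score 101.69, on the minus strand from 34499214 to 34499323 and on the plus strand from 36288631 to 36288740. The same score was held by 2 narrower replicate 2 peaks of the chromosome, from 41931175 and 56492687, and scores other than 3100 recurred in 28 of its 331 peaks below 3100. In replicate 1, scores other than 3100 recurred in 8 of the 100 peaks that had such a score, the 2 of 349 bp included. Replicate 1 had no peak at either of the 110 bp peaks. Apart from the loci described next, 3 pairs tied at 3100 lay within 2 Mb, all in replicate 1. They were 170 bp wide (minus strand, from 3989780 and 4875527), 90 bp wide (from 7400969 on the plus and 8135044 on the minus strand) and 201 bp wide (from 73100065 on the plus and 74006069 on the minus strand).

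The clearest repeated pattern was a set of 4 loci on the long arm between 34 and 37 Mb. In replicate 1 each was a peak of 165 bp and in replicate 2 each was a peak of 223 bp, and at all 4 the 5′ edges fell on the same base. They lay on the minus strand, ending at 34493943, at 34798054 and at 36338594, and on the plus strand, starting at 36294032. Their 5′ edges lay from 44562 bp apart, for the 2 closest, to 1844651 bp apart, for the outermost. The replicate 1 scores were 3100 at 3 loci and 14.36 at the one ending at 34798054. The replicate 2 scores were 592.07, 3100, 1187.05 and 1420.65 in the order given above. The peaks matched base for base in length and edge while their scores did not.

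Another overlapping peak of 165 bp, on the minus strand from 27332917 to 27333081, also shared its 5′ edge with replicate 2. There the replicate 2 peak was 236 bp wide, and the scores were 24.60 and 1164.21. Of the 12 replicate 1 peaks of 165 bp on all chromosomes, 7 were on chromosome 17. The 2 without a replicate 2 partner lay on the minus strand from 3664307 and on the plus strand from 27936104, each with the score 3100. All 4 peaks of 223 bp that replicate 2 had on chromosome 17 were those of the 4 loci, of 16 in the whole list.

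The surroundings of the 4 loci were alike in part. The 110 bp peaks of replicate 2 lay 5380 bp upstream of the locus ending at 34493943 and 5401 bp upstream of the one starting at 36294032. Neither list had a peak at that distance upstream of the other 2 loci. On the plus strand, replicate 1 also had a peak from 36285966 to 36286188, 8066 bp upstream, with the score 3100. Upstream of the locus ending at 36338594, both lists had a peak that overlapped, from 36347712 to 36347835 in replicate 1 and from 36347566 to 36347776 in replicate 2. Reads that match several copies equally well can be placed on any of them or on all. How such reads were placed is not given in the sources used here, and its part in these loci was not tested.

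Apart from pairs at the same loci in both lists, no spacing of an equal-width pair was found again at other loci of the chromosome.

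When same-strand peaks of both lists at most 10 kb apart were joined, 407 clusters resulted, and 306 were single peaks and 61 held peaks of both lists. In 31 of those 61 no peaks overlapped. Joined clusters of other chromosomes are not given here, so these counts have no background beside them. Only 12 clusters held 4 or more peaks. The fullest, on the plus strand from 1630292 to 1641893, held 2 replicate 1 peaks with scores of 75.25 and 3100 and 5 replicate 2 peaks between 63.39 and 300.87, with 1 overlap. The next, on the plus strand from 41142946 to 41152119, held 3 peaks of each list and 2 overlaps. Its replicate 1 scores were 51.13, 169.05 and 908.22, and its replicate 2 scores 234.84, 822.69 and 2237.52. There both lists had their highest score at the same end, and no replicate 1 peak had 3100.

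Some clusters came from 1 list alone. On the minus strand from 73645870 to 73658739, replicate 1 had 5 peaks with scores from 30.45 to 741.05, and replicate 2 had none. On the minus strand from 40852534 to 40865407, replicate 2 had 4 peaks with scores from 303.99 to 1150.3, and replicate 1 had none. The 2 clusters from 36285966 and from 36338372 each hold 1 of the 4 loci with the same widths and have been given with them. Of the other clusters of 4 peaks, all had 1 replicate 1 and 3 replicate 2 peaks. Those on the minus strand from 3989053 and on the plus strand from 7788123 each held 1 overlap. Those on the plus strand from 17064554, 30801782, 72995599 and 73746761 held none, though the lists lay side by side there within 6.99 to 15.5 kb.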

How the data were processed

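Per the labels, RNA immunoprecipitated with an m5C antibody and input RNA were sequenced in 2 replicates, and each deposited peak list is named for 1 immunoprecipitated and 1 input sample. The submitters' processing notes name cutadapt 1.9.3 and hg19. Peak names begin with MACS. Not given in the sources used here are the aligner, the caller's version, annotation, thresholds and the treatment of reads with several matches. The score was deposited by the authors with no scale stated, and was not rescaled. The deposited starts and ends (unit other, in bp) were read as 0-based and are printed 1-based. Thresholds that differed between replicates would change peak numbers, widths and scores. The lowest score was 3.51 in the replicate 1 list and 50.13 in the replicate 2 list, so the lists do not share a lower score limit.

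Peaks with chromosome 17 in the first column were taken and assigned to 1 Mb windows by their start. Work was done in Python 3.11.15 with pandas 2.3.3, numpy 2.4.6, scipy 1.17.1, statsmodels 0.14.6 and matplotlib 3.10.9. Overlaps were checked against bedtools 2.31.1 and tested on simulated data, where 30 of 30 planted shared peaks were found. The planted peaks were exact copies in position and strand, so the simulation did not try partial overlaps. Fisher's exact tests compared the lists, and shares have 95% Wilson intervals. Members are otherwise described without a test, beside all peaks of their list. The arm border at 24 Mb comes from general knowledge of hg19. No hg19 sequence or annotation was used here, so peaks have no gene, and the gene lists set out for that case were not counted.

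Named are all overlapping pairs, the 5 highest-scoring, 3 widest and 3 narrowest peaks of each list, the fullest windows, clusters of 4 or more peaks, and equal-width pairs of 20 bp or more with equal scores less than 2 Mb apart, or with recurring spacing. The chromosome and these rules were chosen with earlier results of these data known. Alternatives were a score filter at each list's own median, a minimum width of 50 bp, other overlap rules, other windows and peaks within 10 kb counted once.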

Additional observations from a re-analysis of the deposited data

How the results depend on the processing

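The differences between lists in the shares of chromosome 17, of the short arm and of the plus strand kept their direction and stayed short of the threshold under all 3 alternatives (a score filter at each list's median, peaks of 50 bp or more, neighbours within 10 kb counted once). With the score filter the short-arm share was 10.5 points higher and the plus-strand share 13.0 points lower in replicate 1 than in replicate 2 (adjusted p = 0.0578 each, Fisher's exact test), against 2.40 and 5.07 points with all peaks. The overlap share of 14.5% fell to 9.05% with a 50% reciprocal overlap, 9.02% with the score filter and 9.50% with lists of equal length (whole list 13.6%, then 7.65%, 7.92% and 8.15%), and was 10.9% to 16.0% under the other 4. The share of windows with both lists, 75%, became 97.3% with 2 Mb windows, 85.3% with windows moved by 0.5 Mb, 60.9% with strands apart and 58.6% with the score filter. The score filter leaves fewer peaks, and in replicate 1 it keeps only those at or above 3100. The replicate 1 median score was 645.8 without scores of 3100 or more, and the replicate 2 median width was 161.5 bp for peaks of 50 bp or more. Widths equal within 1 bp gave 274 and 471 pairs in place of 128 and 161. No paired analysis was possible because each list joins 1 immunoprecipitated with 1 input sample and no per-sample values were used here, and leaving out a replicate leaves no second list to compare. Depth limits every share, since it is unknown.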
